A study of Mus musculus with 12 samples.

Results

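The control cultures of a study on neuronal ageing make up 6 of its 12 mRNA libraries. They were picked by label alone, with no measured value. In 3 of them the neurons received mCherry, a red fluorescent protein that stands in for an over-expressed gene, and in 3 they received DMSO, the solvent of etoposide. All 6 came from primary neurons of C57BL/6 mice, carry the genotype label WT and were collected at day 10. The mCherry cultures are the controls of H-Ras(G12V), a constantly active form of H-Ras, which is a small GTPase, and the DMSO cultures are those of etoposide, a topoisomerase II poison that breaks DNA. The design text names an adeno-associated virus for H-Ras, and the labels do not say what carried mCherry. They also do not give the brain region, the age of the mice, the amount of DMSO, or whether libraries of a group were grown separately. P-values therefore reflect only how far these libraries vary, and that variation may be technical.

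For the DMSO libraries the treatment tag reads etoposide, while the title, the library name and the column name read DMSO. DMSO stands here for the libraries titled so. Mdm2, a p53 target that DNA damage induces, read 17.7, 15.3 and 13.1 FPKM in them and 182, 189 and 22.2 FPKM in the libraries titled etoposide. Ccnb1, cyclin B1 of dividing cells, read 10.2, 16.0 and 11.6 FPKM against 0.54, 0.39 and 0.33. The libraries titled etoposide were higher in Mdm2 and lower in Ccnb1, with no overlap.

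Each group sits in a table of its own, with 18223 and 17800 genes. Each library was therefore scaled to a sum of 1000000 over the 17416 genes that both tables list. The resulting unit (TPM) is a level per transcript length, so genes of 1 library can be compared with each other. Between 12538 and 13244 genes reached 1 TPM in a library, and 12172 did so in all 6. Depth was estimated only roughly, at 15200000 to 15800000 fragments for mCherry and 26900000 to 28900000 for DMSO libraries. Libraries of a group were not equally alike. Across genes, which are not independent replicates, mCherry 1 and 2 had a rank correlation of 0.994, and mCherry 3 had 0.963 and 0.961 with them but 0.977 and 0.974 with DMSO 1 and 2. DMSO 1 and 2 correlated at 0.99, and DMSO 3 at 0.979 and 0.973 with them. In 13197 genes averaging at least 1 TPM over the 6 libraries, 0.311% differed by over 1 log2 unit between mCherry 1 and 2, 1.83% between DMSO 1 and 2, 12.4% between mCherry 3 and the mean of the other two, and 16.3% between DMSO 3 and the mean of the other two.

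Cultures of primary neurons are made from dissociated brain tissue of young animals. The neurons regrow axons and dendrites and pass from a growth stage, with high doublecortin and growth-cone proteins, to a synaptic stage, with vesicular transporters, receptors and ion channels. Astrocytes, oligodendrocyte precursors and fibroblast-like cells of the meninges and vessel walls come along with the tissue and can divide in the dish. Microglia and endothelial cells often survive poorly in media made for neurons. In RNA from a whole culture, fewer cells of a type and less RNA per cell cannot be told apart.

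Neuronal transcripts were abundant in every control library. All 18 pan-neuronal markers stood at 5 TPM or more in all 6. Uchl1, a ubiquitin hydrolase of neurons, read 1424, 1465 and 1027 TPM in mCherry 1, 2 and 3 and 1439, 1415 and 1811 TPM in DMSO 1, 2 and 3. It was thus of like order in both groups, lowest in mCherry 3 and highest in DMSO 3. Of 18 excitatory markers 16 reached 1 TPM in all 6 libraries, and of 18 inhibitory markers 17. Slc17a7, the vesicular glutamate transporter VGLUT1, was at 101, 112 and 845 TPM in mCherry and at 753, 706 and 892 TPM in DMSO. Gad1, which makes GABA, read 132, 134 and 354 TPM against 121, 140 and 59.3 TPM. Both transmitter types were therefore present throughout, with mCherry 3 far above mCherry 1 and 2 in each of these genes and DMSO 3 lowest in Gad1.

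Factors of the forebrain were present, and factors of more caudal brain were near 0. Of 7 forebrain factors 6 reached 1 TPM in all 6 libraries. Lhx2, a cortical selector gene, read 142, 144 and 89.2 TPM in mCherry and 143, 111 and 120 TPM in DMSO. The groups overlapped in it, and mCherry 3 was lowest. Of 12 factors of midbrain, hindbrain and spinal cord, 6 are in both tables and none of these reached 1 TPM in all 6 libraries. Hoxa5 was listed at 0 in all 6. Otx2, which is also made in choroid plexus, was the highest of them, at 5.24, 6.12 and 2.54 TPM in mCherry and 0.578, 0.357 and 0.82 TPM in DMSO. The groups did not overlap in Otx2, but the difference did not pass the test across all genes described below (limma, Benjamini-Hochberg adjusted p = 0.0562). Among 6 factors enriched in hippocampus, Prox1, which marks granule cells, read 42.0, 50.4 and 21.9 TPM and 32.1, 32.4 and 13.2 TPM. Spink8 was listed at 0 in mCherry 1 and 2 and read 29.6 TPM in mCherry 3 and 12, 15.4 and 14.0 TPM in DMSO. Fibcd1 likewise read 2.36 and 3.07 TPM in mCherry 1 and 2 and between 18.7 and 27.5 TPM in the other 4 libraries. The labels name no region, and none is assigned from these genes.

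Astrocyte transcripts were of the same order as neuronal ones. All 20 astrocyte markers reached 1 TPM in every library, and their summed level ran from 6126 to 15586 TPM in mCherry and from 8862 to 14704 TPM in DMSO. Apoe, the lipid carrier that astrocytes secrete, was among the 10 most abundant transcripts and read 1705, 1887 and 5436 TPM in mCherry and 5972, 4264 and 8953 TPM in DMSO. Gfap, their intermediate filament, read 1029, 1075 and 3095 TPM against 783, 597 and 1039 TPM. Apoe and Gfap were both highest within mCherry in library 3, and their group ranges overlapped. Of 10 neural progenitor markers 9 reached 1 TPM in all 6 libraries. They were led by Fabp7, the brain fatty acid binding protein of radial glia, at 5918, 5788 and 4807 TPM in mCherry and 4674, 3387 and 3083 TPM in DMSO. Fabp7 lay higher in each mCherry library than in any DMSO library, with a difference that did not pass the test (adjusted p = 0.182, limma).

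The oligodendrocyte lineage was represented mainly by its precursors. Olig2, the lineage factor, read 96.8, 78.1 and 211 TPM in mCherry and 239, 192 and 237 TPM in DMSO. Pdgfra, the growth factor receptor of the precursors, read 25.1, 24.8 and 64.1 TPM against 143, 107 and 62.5 TPM. In both genes mCherry 1 and 2 were lowest, while mCherry 3 fell into the DMSO range. Other precursor markers lay the other way. Of 10 markers, 2 (Enpp6 and Vcan) were higher in every mCherry library than in every DMSO library, and 0 were lower in every one. Over all tested genes these shares were 24.1% and 9.57%. Enpp6 read 6.36, 4.91 and 12.6 TPM against 1.33, 3.22 and 0.250 TPM. The median difference of the list, mCherry minus DMSO, was -0.90 log2 units. Of 11 markers of mature oligodendrocytes 6 reached 1 TPM in all 6 libraries. Mbp, the myelin basic protein, read 67.4, 51.6 and 97.1 TPM and 32.5, 71.7 and 26.1 TPM. The late myelin gene Mobp stayed under 0.5 TPM in every library, and Opalin was listed at 0 in 4 of the 6.

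Markers of cells from outside the neural lineage ranged from present to nearly absent, and those of microglia varied by gene and library. Of 17 fibroblast and mural markers 13 reached 1 TPM in all 6 libraries, and their summed level was 939, 733 and 776 TPM in mCherry and 622, 1432 and 453 TPM in DMSO. Col1a1, the chain of type I collagen, read 99.6, 78.5 and 31.7 TPM and 41.5, 148 and 23 TPM. DMSO 2 was highest and DMSO 3 lowest in it. Of 14 tested members 3 were higher in every mCherry library than in every DMSO library. Vtn was the 1 that was lower in every mCherry library. Over all tested genes these shares were 24.1% and 9.57%. Acta2, among the 3, read 31.5, 31.2 and 19.9 TPM against 0.556, 6.14 and 0.856 TPM and did not pass the test (adjusted p = 0.0563, limma). Of 15 markers of microglia and macrophages only 3 reached 1 TPM in all 6 libraries, Cd68 and Tmem119 among them. Cx3cr1, the fractalkine receptor, and Ptprc, CD45, stayed under 1 TPM in every library, and Cx3cr1 was listed at 0 in DMSO 3. Other members were higher in some libraries, such as Tyrobp, at 11.1, 9.87 and 0 TPM in mCherry and 5.76, 42.1 and 2.43 TPM in DMSO. The summed microglial level was 79.0, 91.7 and 41.9 TPM in mCherry and 67.2, 225 and 45.8 TPM in DMSO. None of 9 endothelial markers reached 1 TPM in all 6, and Cldn5, the tight-junction protein of brain vessels, stayed at or under 0.104 TPM. Kdr, of the same list, was higher, at 6.74, 8.73 and 1.79 TPM in mCherry and 0.942, 1.03 and 0.392 TPM in DMSO. Its groups did not overlap, and the difference did not pass the test (adjusted p = 0.136, limma). Of 2 globin genes in both tables Hbb-bt was at 0 in every library, and Hba-a1 read 7.80, 6.76 and 0 TPM in mCherry and 0.967 to 1.55 TPM in DMSO.

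**Figure D1:**
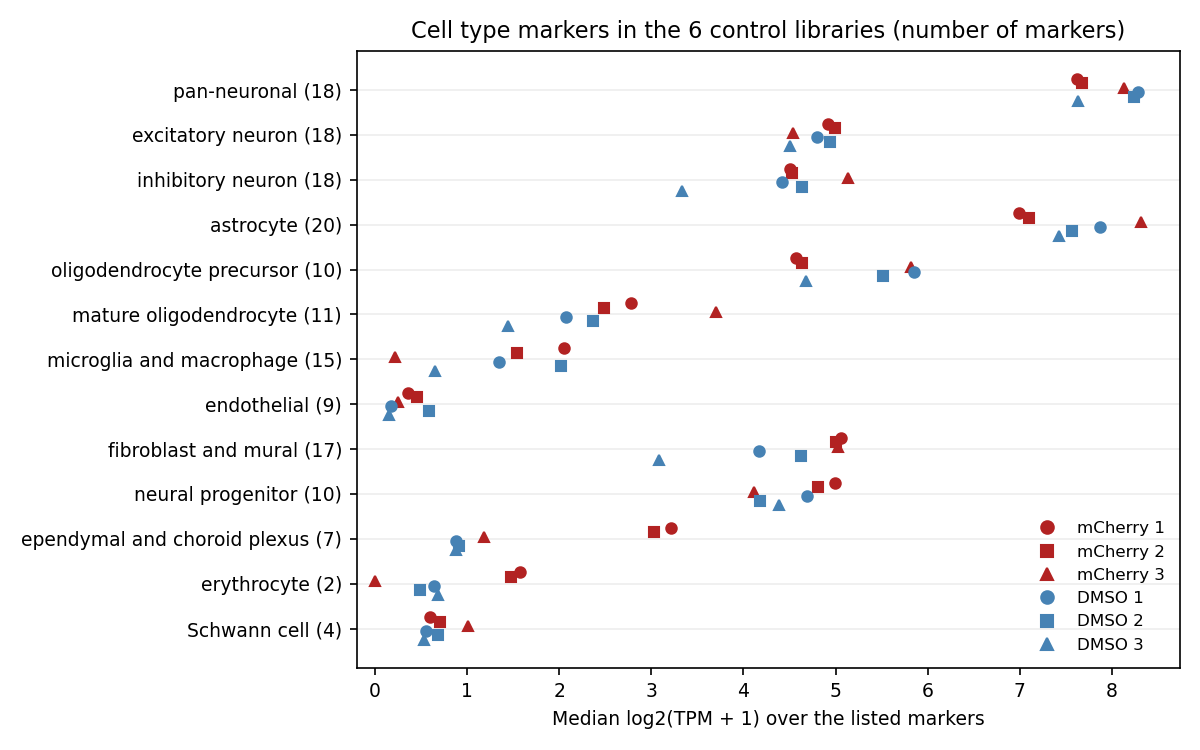
Median log2(TPM + 1) over the markers of 13 cell types (number of markers in brackets) in each control library, mCherry in red and DMSO in blue, with a circle, square and triangle for libraries 1, 2 and 3. Pan-neuronal and astrocyte medians lie highest, endothelial medians lie near the bottom in every library (0.15 to 0.59), and the triangles of mCherry 3 and DMSO 3 often lie away from the other libraries of their colour.

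mCherry 3 held less transcript of immature-neuron genes and more of maturing-neuron genes than mCherry 1 and 2. This contrast is a description, with no test, since 1 library is set against 2. Over the 13197 genes 945 (7.16%) lay over 1 log2 unit higher in mCherry 3 than the mean of the other two, and 697 (5.28%) lay over 1 log2 unit lower. Of 12 genes of the immature neuron, 11 were lower in mCherry 3, 7 of them by over 1 log2 unit, with a median difference of -1.30 against -0.01 over all genes. Dcx, doublecortin, which stabilises microtubules in growing neurites, read 213 and 245 TPM in mCherry 1 and 2 but 15.3 TPM in mCherry 3. It read 51.2, 50.6 and 13.1 TPM in DMSO. Sox11, a transcription factor of newborn neurons, read 70.6, 82.5 and 11.0 TPM in mCherry and 14.6, 15.3 and 5.94 TPM in DMSO. In Dcx and Sox11 mCherry 3 thus lay within the range of the DMSO libraries. In other genes it lay below every DMSO library. Stmn1, stathmin, which frees tubulin from microtubules, read 2957, 2987 and 524 TPM in mCherry and 1046, 955 and 1111 TPM in DMSO. Outside the list, Dpysl5, a growth-cone protein, read 414, 448 and 34.9 TPM against 216, 214 and 170 TPM, and Cd24a, a surface glycoprotein of young neurons, read 743, 833 and 66.9 TPM against 326, 304 and 217 TPM.

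Genes of maturing neurons lay the other way. Of the 11 with a value, 10 were higher in mCherry 3, 8 by over 1 log2 unit, with a median of 1.71. Camk2a, the kinase of the postsynaptic density, read 87.6, 97.9 and 577 TPM in mCherry and 652, 635 and 690 TPM in DMSO. Snap25, which drives vesicle fusion, read 328, 362 and 1173 TPM against 722, 772 and 332 TPM. mCherry 3 was above mCherry 1 and 2 in both, close under the DMSO range in Camk2a and above it in Snap25. Of the genes over 1 log2 unit higher in mCherry 3, the DMSO mean was nearer to mCherry 3 than to mCherry 1 and 2 in 522 of 945, and of those lower in 434 of 697.

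**Figure D2:**
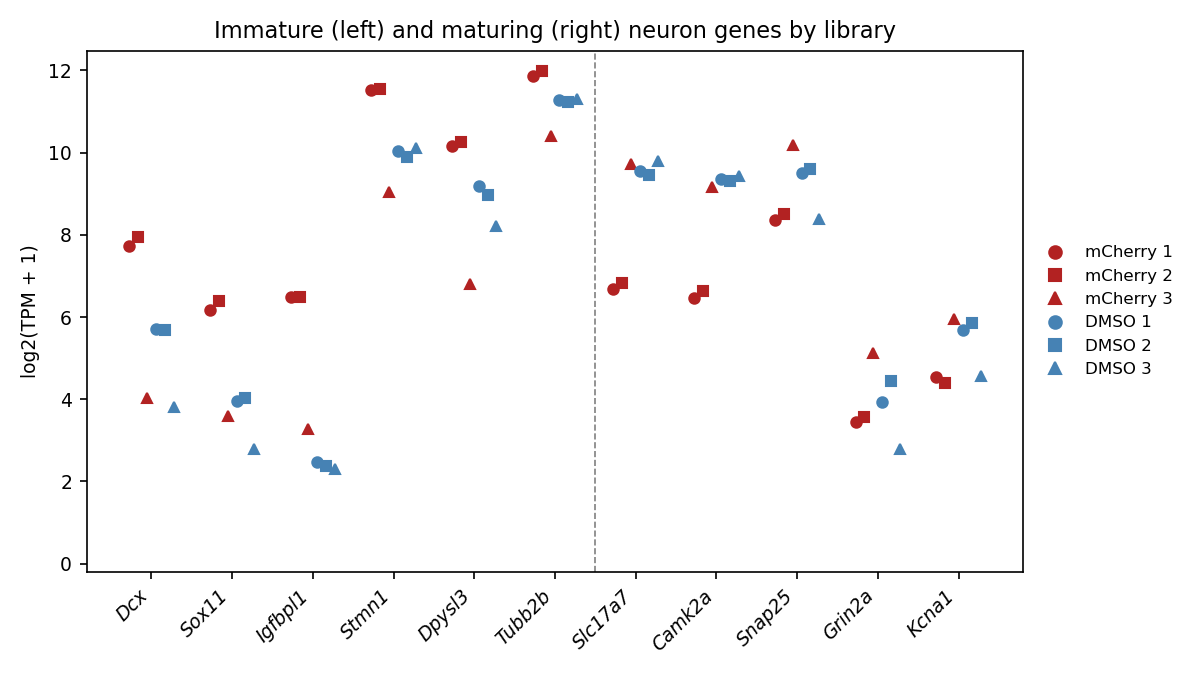
Level of 6 immature and 5 maturing neuron genes, as log2(TPM + 1), in each control library (red mCherry, blue DMSO; circle, square and triangle for libraries 1, 2 and 3). In the left-hand genes the mCherry 3 triangle lies under both other red points (Dcx 15.3 against 213 and 245 TPM), and in the right-hand genes above them (Slc17a7 845 against 101 and 112 TPM).

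Interneuron peptides and activity genes were also high in mCherry 3. Of 18 inhibitory markers 14 were higher there, 9 by over 1 log2 unit and none lower by that much. Npy, neuropeptide Y, read 99.3, 99.8 and 598 TPM in mCherry and 31.4, 28.7 and 28.2 TPM in DMSO. Sst, somatostatin, read 357, 393 and 983 TPM against 298, 286 and 259 TPM. Vip, of another interneuron class, read 1.26, 1.33 and 36.0 TPM against 8.0, 7.67 and 3.69 TPM. In Npy and Sst every mCherry library lay above every DMSO library, and mCherry 3 lay furthest up. Of 24 immediate early and activity genes 22 were higher in mCherry 3, 16 by over 1 log2 unit (median 1.37). Arc, which neuronal firing induces and which acts at synapses, read 2.48, 1.39 and 77.7 TPM in mCherry and 23.3, 75.4 and 30.1 TPM in DMSO. Egr1, an activity-induced transcription factor, read 5.81, 7.78 and 55.5 TPM against 78.3, 153 and 76.3 TPM. Ptgs2, cyclooxygenase 2, read 1.02, 0.954 and 43.7 TPM against 4.0, 8.53 and 1.89 TPM. Low values of Arc and Egr1 thus set mCherry 1 and 2 apart from the 4 other control libraries, whereas in Ptgs2 mCherry 3 alone was high.

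Glial and immune markers moved in mCherry 3 as well, and their part in the neuronal differences was not tested. Astrocyte markers had a median of 0.93, with 17 of 20 higher. Precursor markers of oligodendrocytes had a median of 1.53, with 9 of 10 higher, all 9 by over 1 log2 unit. Microglial markers had a median of -1.80, with 2 of the 10 tested higher, and C1qa, C1qc and Tyrobp were listed at 0. The summed microglial level was 79.0 and 91.7 TPM in mCherry 1 and 2 and 41.9 TPM in mCherry 3. Ccl3, a chemokine of activated microglia, read 13.2, 11.8 and 0 TPM.

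Within DMSO, library 2 held more transcripts of microglia and of fibroblasts than library 1. This, too, compares single libraries and has no test. Over all genes 230 (1.74%) lay over 1 log2 unit higher in DMSO 2 and 11 lower. The median difference over all 13197 tested genes was -0.03, with 5862 higher in DMSO 2. All 10 tested microglial markers were higher, 7 by over 1 log2 unit, with a median of 2.04. C1qa, a chain of the complement protein that microglia make, read 3.04, 24.0 and 0.571 TPM in DMSO 1, 2 and 3, and 5.85, 8.88 and 0 TPM in mCherry. Tyrobp, the adaptor of microglial receptors, read 5.76, 42.1 and 2.43 TPM against 11.1, 9.87 and 0 TPM. DMSO 2 was the highest of the 6 libraries in both, and mCherry 3 the lowest. Of 14 tested fibroblast and mural markers 12 were higher in DMSO 2 (median 1.40), such as Postn, periostin of the matrix, at 22.1, 68.0 and 5.44 TPM. All 24 activity genes, all 25 of glycolysis and the hypoxia response and all 34 of DNA replication and mitosis were also higher in DMSO 2 than in DMSO 1, with medians of 0.98, 0.47 and 0.52. Fos, the classic immediate early gene, read 29.4, 206 and 34.2 TPM, and Slc16a3, the lactate exporter that low oxygen induces, read 5.11, 19.1 and 1.27 TPM.

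DMSO 3 differed mostly through low values. Against the mean of DMSO 1 and 2, 2142 genes lay over 1 log2 unit lower and 10 higher. The difference went with the base composition and length of the transcript. In 4 equal bins of rising GC content, the median difference was -0.92, -0.36, 0.03 and 0.11, and in 4 bins of rising length 0.08, -0.06, -0.26 and -0.59. Over all 13197 tested genes the median difference was -0.18, with 4882 higher in DMSO 3. Postsynaptic genes had a median of -1.14, with 5 of 29 higher, and microglial markers one of -1.55, with none higher. Gad2, which makes GABA at terminals, read 46.1, 48.0 and 9.29 TPM in DMSO, and Hsp90b1, a chaperone of the endoplasmic reticulum, read 373, 486 and 106 TPM. DMSO 3 was below every other control library in both. Cytosolic ribosomal proteins were instead higher in DMSO 3 in 27 of 30, with a median of 0.27, and subunits of oxidative phosphorylation in 28 of 30, with a median of 0.33. What part composition has in the low synaptic values was not tested.

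Against this spread, mCherry and DMSO cultures were compared gene by gene with limma on log2(TPM + 1), coded mCherry minus DMSO. The control group, the deposited table and the experiment change together, so a difference between them cannot be told apart by source. Of 13197 tested genes 166 passed a Benjamini-Hochberg adjusted p of 0.05, which is 1.26%. There were 132 higher in mCherry (1.00%) and 34 lower (0.258%), and 155 differed by at least 1 log2 unit. In all 166 the groups did not overlap, as in 33.7% of all tested genes. The median difference over all tested genes was 0.15 and moved to between -0.02 and 0.04 under median-of-ratios and upper-quartile scaling, so small differences depend on the scaling. The 166 calls rested on single libraries. Without mCherry 3, limma called 1898 genes (14.4%), 943 higher (7.16%) and 955 lower (7.25%), 165 of the 166 among them, and without DMSO 3 it called 195, with 113 of them shared. Without DMSO 2 the count was 63. It was 0 without DMSO 1, without mCherry 1 and without mCherry 2, where 2349, 1385 and 1434 genes had an unadjusted p under 0.05, as 2823 had over all 6 libraries. The closest libraries were mCherry 1 and 2, with a chi-square per degree of freedom of 2.99, against 23.3 to 128 for other pairs of a group. It was taken on counts rebuilt from FPKM, transcript length and the rough depth, for genes with a single transcript. With depth and length uncertain, it cannot decide whether mCherry 1 and 2 differed by more than sampling noise. mCherry 1 and 2 averaged into 1 sample left 0 calls and 1407 genes at an unadjusted p under 0.05.

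Among the genes with the largest differences in mCherry's favour were Atrx, Tpr and Akap9. Atrx, a chromatin remodeller, read 75.0, 79.0 and 59.8 TPM in mCherry and 6.78, 9.63 and 5.08 TPM in DMSO. The groups lay far apart, by 3.17 ± 0.24 log2 units (SE; adjusted p = 0.0189, limma). Tpr, of the nuclear pore basket, read 58.0, 59.2 and 51.7 TPM against 5.69, 8.97 and 3.78 TPM. The difference was 3.07 ± 0.28 (adjusted p = 0.0189, limma), and the spread within mCherry was small beside it. Akap9, a scaffold at centrosome and Golgi, Ankrd12, an ankyrin repeat protein, and Ccdc88a, the actin-binding girdin, differed by 3.07, 2.95 and 2.77 log2 units. Zfp40, a zinc finger protein, and the predicted gene Gm7072 differed by 2.66 and 2.79. When each library was centred within bins of transcript GC content and length, an alternative added after seeing the data, Tpr went to 2.42, Ccdc88a to 2.10 and Zfp40 to 1.96, and Zfp40 no longer passed (adjusted p = 0.0547, limma). Among the 132 genes 32 have a symbol that starts with Zfp and 17 a symbol of Gm and a number, against 362 and 110 among the 13197. Whether reads were shared between similar copies of such genes was not tested, and their values are uncertain where that occurs.

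Genes of cell division lay higher in mCherry, though few passed the test. Of 34 genes of DNA replication and mitosis, 2 were called higher, against 1.00% of all genes, and none lower. In 18 of the 34 the groups were separate, with every mCherry library above every DMSO library, against 24.1% of all genes in that direction. The median difference of the list was 0.70, against 0.15 over all tested genes, and 0.45 to 0.86 in the alternatives run for it. Mki67, the antigen of cycling cells, read 22.8, 20.4 and 16.2 TPM in mCherry and 1.07, 3.03 and 0.927 TPM in DMSO. It was higher by 3.03 ± 0.33 log2 units (adjusted p = 0.0234, limma). Cenpf, a kinetochore protein, read 10.3, 9.33 and 7.09 TPM against 0.342, 0.63 and 0.374 TPM and was higher by 2.77 ± 0.21 (adjusted p = 0.0189). Smc4, the condensin subunit that compacts chromosomes, is outside that list and was higher by 2.61 ± 0.34 (adjusted p = 0.0263). Other markers of division differed less. Top2a read 63.8, 59.0 and 45.4 TPM against 26.8, 46.9 and 8.76 TPM, with overlapping groups, and Pcna, the sliding clamp of replication, read 253, 222 and 221 TPM against 149, 192 and 161 TPM (adjusted p = 0.158, limma). Transcript GC content was 47.5% for Mki67, 43.3% for Cenpf and 40.2% for Smc4, against a median of 51.0% over all tested genes. Centred on GC content and length, the differences were 2.68, 2.26 and 1.76, all 3 still called, and the median of the list was 0.45.

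Further called genes encode a few matrix, filament, receptor and interferon-inducible proteins. None of 23 extracellular matrix genes and none of 20 astrocyte markers in the lists was called by limma (5 and 5 at an unadjusted p under 0.05). Over all tested genes 1.26% were called and 21.4% had such a p, so these counts do not set the 2 lists apart. Cnmd, chondromodulin, a secreted inhibitor of vessel growth, showed the largest difference in mCherry's favour among the genes named by the rule, with 20.4, 20.8 and 11.6 TPM against 0.364, 0.483 and 0.678 TPM (3.59 ± 0.27 log2 units, adjusted p = 0.0189, limma). Fmod, fibromodulin, which binds collagen, read 18.6, 17.0 and 15.0 TPM against 1.35, 2.54 and 1.84 TPM. Vim, vimentin, the filament of progenitors, astrocytes and fibroblasts, read 1195, 1144 and 952 TPM against 318, 441 and 381 TPM. In all 3 genes the groups were separate, and the difference was 2.64 for Fmod and 1.53 for Vim. Folr1, a folate receptor of choroid plexus, read 8.29, 7.15 and 3.49 TPM against 0.449, 0.736 and 0.838 TPM and passed at 2.07 ± 0.31 (adjusted p = 0.0398). Of 4 tested markers of ependyma and choroid plexus it was the 1 called, and the summed level of that list was 42.2 to 123 TPM in mCherry and 10.7 to 37.0 TPM in DMSO. Ifitm3, an interferon-induced membrane protein, read 135, 140 and 189 TPM against 31.0, 47.3 and 50.8 TPM and passed at 1.84 ± 0.23 (adjusted p = 0.0260). It was the 1 called gene of 17 tested in the type I interferon list, where 9 lay wholly above in mCherry, against 1.00% called higher and 24.1% wholly above over all genes. Mx1 and Oas1a, which viruses and interferon induce strongly, stayed under 0.5 TPM in every library.

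**Figure D3:**
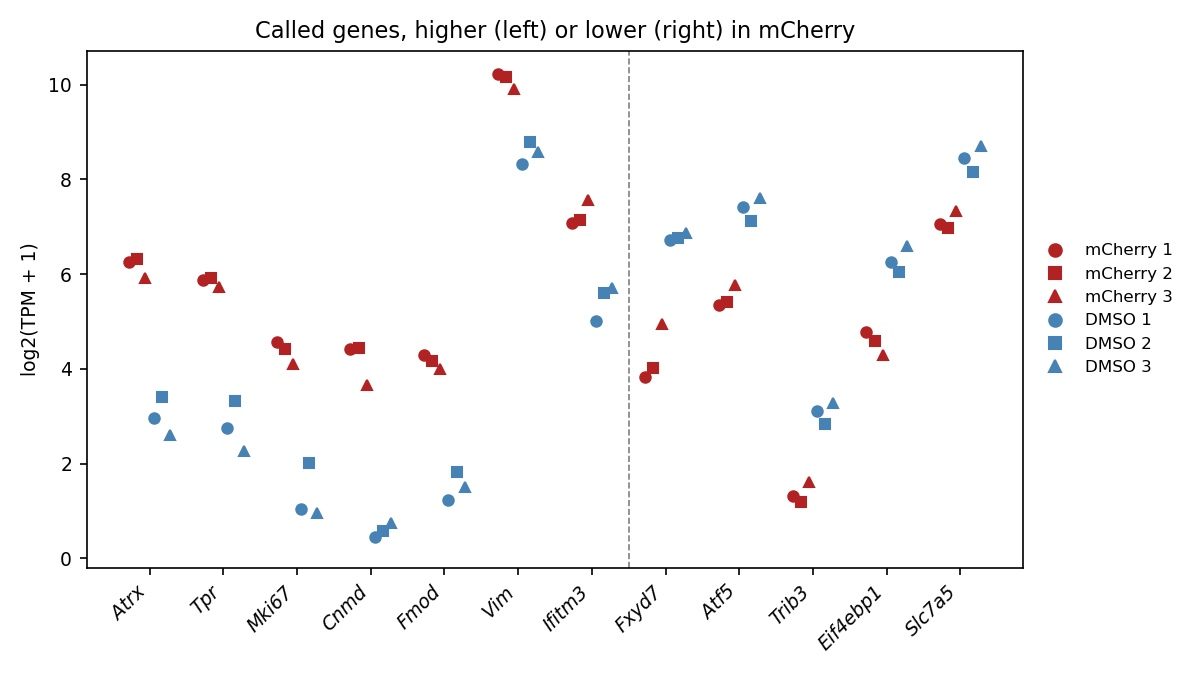
Level of 12 called genes, as log2(TPM + 1), in each control library (red mCherry, blue DMSO; circle, square and triangle for libraries 1, 2 and 3). Left of the dashed line every red point lies above every blue point (Atrx 59.8 to 79.0 against 5.08 to 9.63 TPM), and right of it below (Atf5 39.6 to 53.8 against 139 to 194 TPM). Slc7a5 was added after its values were seen.

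Genes of the amino acid stress response lay lower in mCherry, and 3 of them passed the test. In this response the factor ATF4 raises amino acid transport and synthesis when cells run short of amino acids or fold proteins poorly. Of 23 genes listed for this integrated stress response and for the unfolded protein response, 3 were called lower and none higher, and 11 lay wholly below, against 9.57% of all genes in that direction. The list's median was -0.58, against 0.15 over all genes. Atf5, a transcription factor of the response, read 39.6, 41.5 and 53.8 TPM in mCherry and 169, 139 and 194 TPM in DMSO. It differed by -1.87 ± 0.19 log2 units (adjusted p = 0.0224, limma). Trib3, a pseudokinase that ATF4 and CHOP induce, read 1.48, 1.27 and 2.06 TPM against 7.64, 6.12 and 8.74 TPM and differed by -1.71 ± 0.22 (adjusted p = 0.0260). Ddit4, an inhibitor of mTORC1 signalling, read 115, 111 and 106 TPM against 194, 223 and 201 TPM and differed by -0.89 ± 0.12 (adjusted p = 0.0296).

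A further 8 genes of the list lay wholly below in mCherry without passing. Chac1, which degrades glutathione, read 11.8, 10.1 and 28.6 TPM against 48.7, 36.0 and 58.8 TPM (adjusted p = 0.125, limma). Psat1 and Phgdh, of serine synthesis, read 168, 169 and 206 TPM against 340, 244 and 370 TPM and 154, 159 and 179 TPM against 311, 229 and 409 TPM. Each of the 3 had separate groups, with adjusted p of 0.114 for Psat1 and 0.115 for Phgdh. Chaperones of the endoplasmic reticulum did not lie below. Hspa5, the main chaperone of the endoplasmic reticulum, read 435, 440 and 401 TPM against 392, 508 and 221 TPM. Calr, calreticulin, read 792, 821 and 674 TPM against 638, 841 and 661 TPM. In both the groups overlapped, while Pdia4, a disulfide isomerase, and Edem1, which sorts misfolded proteins, lay wholly above in mCherry without passing. Eif4ebp1, which represses translation and is outside the list, read 26.5, 23.1 and 18.6 TPM against 75.4, 65.2 and 95.1 TPM (-1.74 ± 0.20, adjusted p = 0.0243). Without mCherry 3 the called genes of the list numbered 8, all lower, against 7.25% of all genes in that fit. Without DMSO 2 there was 1, lower, where only 4 of all 13180 tested genes were called lower.

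The promoter of Trib3 is shown because, of the 3 called genes of this list, it is the 1 whose promoter window holds the motif of the pathway. In the RefSeq table, 300 bases around its annotated start on the minus strand, chr2:152344011-152344310 of build GRCm38.p6, hold 1 match to the C/EBP-ATF response element, the motif that ATF4 and CHOP bind. The motif was searched as TGATGNAA on both strands and was chosen after the values were seen. Capitals mark the match, which lies on the opposite strand from base 265 of the window, just past the start.
Trib3 promoter: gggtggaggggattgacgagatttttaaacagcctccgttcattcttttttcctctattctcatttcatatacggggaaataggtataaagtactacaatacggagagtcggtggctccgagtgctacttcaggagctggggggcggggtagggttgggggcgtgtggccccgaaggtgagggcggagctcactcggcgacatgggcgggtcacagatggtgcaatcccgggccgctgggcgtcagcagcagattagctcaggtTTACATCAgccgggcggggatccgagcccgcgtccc
The motif is held by 3.97% of all 32851 promoters listed by RefSeq and by those of 6 of the 23 genes of the list. The promoters of Atf5 and Ddit4 hold none. The whole cyclic AMP response element TGACGTCA, present in 1.79% of promoters, is absent from the window of Trib3. A match describes these letters and not a bound site.

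Glycolysis and cholesterol synthesis lay in the same direction. Of 25 genes of glycolysis and the hypoxia response 1 was called lower in mCherry, 11 lay wholly below and 1 wholly above, with a median of -0.59. Over all tested genes 0.258% were called lower, 9.57% lay wholly below and 24.1% wholly above. Pfkp, a phosphofructokinase isoform of brain, was the called gene, at 91.8, 97.1 and 99.7 TPM against 163, 174 and 151 TPM (-0.75 ± 0.12, adjusted p = 0.0467, limma). Tpi1, triose phosphate isomerase, read 531, 486 and 778 TPM against 963, 1214 and 1071 TPM and did not pass (adjusted p = 0.111). Of 20 genes of cholesterol synthesis 1 was called lower and 11 lay wholly below, against the same shares over all genes, with a median of -0.46. Dhcr7, the last enzyme of the pathway, read 108, 111 and 99.5 TPM against 204, 168 and 214 TPM (-0.87 ± 0.14, adjusted p = 0.0467). Without DMSO 2 no gene of either list was called, where only 4 of all 13180 tested genes were called lower. Without mCherry 3 there were 12 of glycolysis and 3 of cholesterol synthesis, all lower, against 7.25% of all genes in that fit.

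The remaining genes with the lowest values in mCherry had varied roles. Fxyd7, which tunes the sodium pump of neurons, read 13.1, 15.3 and 29.7 TPM against 104, 108 and 115 TPM. It differed by -2.52 ± 0.30 log2 units (adjusted p = 0.0243, limma), and within mCherry library 3 lay nearest to DMSO. Slc6a13, the GABA transporter GAT2, read 1.52, 1.47 and 3.14 TPM against 12.9, 8.83 and 10.7 TPM (-1.99 ± 0.27, adjusted p = 0.0323). Lsm11, which processes histone mRNA, read 28.5, 33.4 and 35.5 TPM against 97.1, 110 and 84.5 TPM (-1.55 ± 0.16). Wnt4, a secreted signal, differed by -1.46. The sulfotransferases Hs3st4 and Chst8 differed by -1.89 and -1.48, and the cadherin-related Cdhr1 and the little-studied Fam163a by -1.83 and -1.75. Jund, an AP-1 subunit, was the 1 called gene of 24 in the activity list, at 69.2, 64.6 and 68.5 TPM against 106, 117 and 119 TPM (-0.75 ± 0.12, adjusted p = 0.0471, limma). It no longer passed when centred on GC content and length (-0.56, adjusted p = 0.0570).

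No marker list of a neuronal class had a called gene in this comparison. For the pan-neuronal, excitatory, inhibitory, immature, maturing, presynaptic and postsynaptic lists limma gave a count of 0 over all 6 libraries, and 3 of 18, 4 of 17, 4 of 18, 2 of 12, 3 of 11, 7 of 25 and 6 of 29 tested genes had an unadjusted p under 0.05. With 1.26% of all tested genes called and 21.4% at an unadjusted p under 0.05, a count of 0 in lists of this size does not set neuronal genes apart. Igfbpl1, of growing axons, read 88.7, 88.8 and 8.73 TPM in mCherry and 4.52, 4.2 and 3.92 TPM in DMSO (3.04 log2 units, adjusted p = 0.138, limma). Nrgn, neurogranin, read 126, 145 and 428 TPM against 710, 654 and 859 TPM (-1.89, adjusted p = 0.113). Calb1, the calcium buffer calbindin, read 7.92, 9.81 and 117 TPM against 119, 125 and 67.6 TPM (-2.17, adjusted p = 0.248). In these 3 genes mCherry 3 lay nearer to the DMSO libraries than mCherry 1 and 2 did, whereas in Npy, given above, it lay further from them (2.58, adjusted p = 0.130). Rbfox3, the nuclear antigen NeuN, read 40.6, 47.7 and 97.7 TPM against 96.7, 84.2 and 83.1 TPM (-0.60, adjusted p = 0.307). It passed only in the fit without mCherry 3 among those that left out library 3 of a group (-0.98, adjusted p = 0.0143, limma). Without mCherry 3, where 7.16% of all genes were called higher and 7.25% lower, 6 of 12 immature genes were called higher in mCherry and none lower. Called lower, with none higher, were 4 of 11 maturing, 10 of 25 presynaptic and 6 of 29 postsynaptic genes and 6 of 10 precursor markers of oligodendrocytes. Olig2 was among these precursor markers (-1.34, adjusted p = 0.0105, limma). Other lists went both ways, with 3 higher and 6 lower of 18 pan-neuronal, 1 and 4 of 17 excitatory, and 2 and 3 of 18 inhibitory markers.

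C4, which the title of the series names, and the usual genes of senescence did not pass between the controls. C4b, complement C4, read 11.3, 10.7 and 32.6 TPM in mCherry and 12.2, 10.1 and 16.3 TPM in DMSO (0.31 ± 0.44, adjusted p = 0.679, limma). C3, the central complement protein, stayed under 2 TPM in every library. Cdkn1a, the p53-induced inhibitor p21, read 77.5, 70.5 and 154 TPM against 120, 129 and 167 TPM (-0.54 ± 0.31, adjusted p = 0.340). Cdkn2a, which encodes p16 and p19, read 1.93, 2.84 and 7.98 TPM against 7.02, 4.75 and 12.4 TPM (-0.87 ± 0.49, adjusted p = 0.329). Groups overlapped in these genes, and mCherry 3 was the highest mCherry library in C4b, Cdkn1a and Cdkn2a. Hras itself read 93.3, 89.1 and 91.9 TPM against 123, 120 and 141 TPM, with separate groups (-0.48 ± 0.12, adjusted p = 0.129). Without mCherry 3, Cdkn1a (-0.89, adjusted p = 0.0314) and Hras (-0.48, adjusted p = 0.0496) passed. In that fit 14.4% of all tested genes were called, and the spread within mCherry came from libraries 1 and 2 alone, the closest pair. With these 2 libraries averaged and mCherry 3 kept, limma called 0 genes.

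The treated libraries of the same tables differed in the same direction for most of the called genes. Of the 132 genes higher in mCherry, 111 (84.1%) were also higher in every H-Ras(G12V) library than in every etoposide library, against 21.1% of all tested genes. Of the 34 lower genes, 15 (44.1%) were lower there in every library, against 11.9%. H-Ras(G12V) and etoposide libraries share their table with the respective controls and differ in treatment as well. The direction was thus shared for most higher genes, and whether it goes with table, experiment or treatment cannot be told apart.

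**Figure D4:**
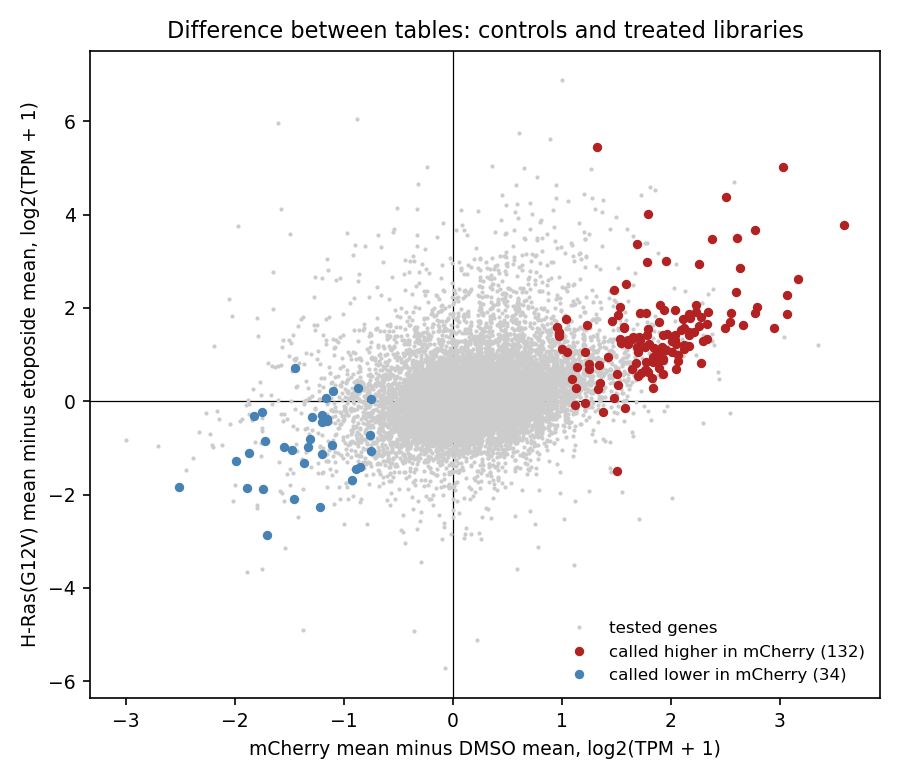
Each point is a tested gene, with the mCherry mean minus the DMSO mean on the horizontal axis and the H-Ras(G12V) mean minus the etoposide mean on the vertical axis, both in log2(TPM + 1), and called genes in colour. Most of the 132 red genes lie above the horizontal line (median 1.33) and most of the 34 blue genes below it (median -0.97).

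Transcript composition also moved with the result. The 132 higher genes had a median GC content of 41.2% and the 34 lower genes one of 55.8%, against 51.0% over all tested genes, and 85 of the 126 higher genes with a GC value were in the lowest of 4 equal GC bins. From the lowest to the highest bin the median difference between mCherry and DMSO was 0.55, 0.21, 0.02 and -0.09. Between H-Ras(G12V) and etoposide libraries it was 0.19, 0.06, 0.07 and -0.04. With each library centred within bins of GC content and length, 245 genes were called, 163 higher and 82 lower, and 112 of the 166 calls were among them. Of the 31 named genes that had passed and have a value there, 28 passed again, Zfp40, Jund and Eif2s3y did not, and none changed direction.

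**Figure D5:**
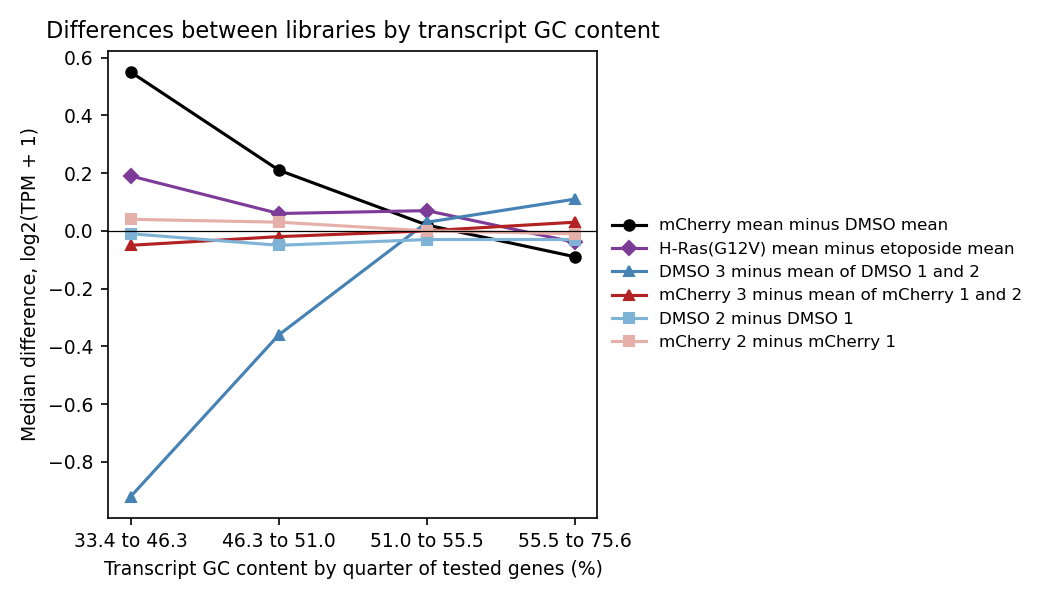
Median difference in log2(TPM + 1) over the tested genes of each of 4 equal bins of transcript GC content, for 6 differences between libraries or group means. The line of DMSO 3 against DMSO 1 and 2 rises from -0.92 to 0.11, that of mCherry against DMSO falls from 0.55 to -0.09, and the lines for mCherry 2 against 1 and DMSO 2 against 1 stay within 0.05 of 0.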

How the data were processed

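Genes and members were chosen with earlier results of these data known. The authors deposited FPKM, which corrects fragment counts for transcript length and library total, in 2 tables. HISAT, Bowtie2, RSEM and build mm9 were used, per the submitters' processing notes, and tool roles, versions and any filter are not given in the sources used here. FPKM of each library was divided by its sum over 17416 shared genes and multiplied by 1000000. Differences were tested in limma 3.58.1 under R 4.3.3 (lmFit, eBayes with trend) on log2(TPM + 1), which understates changes of low genes, for genes averaging at least 1 TPM, with two-sided p-values adjusted by Benjamini-Hochberg and called under 0.05. Values after ± are standard errors. The procedure was tested on simulated data. Lengths and GC content came from GENCODE M21 (98.3% of tested genes matched), another build than mm9, and depth was estimated from the steps of low FPKM values.

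Named genes were the 10 most abundant, up to 5 of highest level per cell type, region or stage list, 13 fixed genes, up to 12 called genes per direction with the largest difference, up to 4 called members per list, and up to 8 per direction for each library that stood apart. Other genes were chosen after their values were seen, and a few genes taken by the rule are not reported here. Mitochondrially encoded genes were not analysed here.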

Additional observations from a re-analysis of the deposited data

How the results depend on the processing

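Counts of genes called between mCherry and DMSO moved with most settings. No called gene that the text names by the rule changed direction over the settings run. As the groups of every called gene were separate, leaving out or averaging libraries could not have reversed a direction. Those settings therefore say nothing about its stability. From 166 genes (132 higher and 34 lower in mCherry), the count went to 291 (240 higher) on deposited FPKM, 325 (213 and 112) on within-library ranks, 89 (70 and 19) with a pseudocount of 0.1, and 53 (41 and 12) at a mean of at least 5 TPM. It went to 0 (0 and 0) with mCherry 1 and 2 averaged and to 6141 (3695 and 2446) without both mCherry 3 and DMSO 3, where the spread rests on 2 close pairs. The lower calls alone moved to 70 under median-of-ratios scaling, 56 under upper-quartile scaling and 82 when centred on GC and length. Leaving out each library in turn gave 0 to 1898 calls, 0 to 943 higher and 0 to 955 lower. The share of higher among called genes was 79.5%, but 65.5% on ranks, 66.5% when centred on GC and length, 93.7% without DMSO 2 and 49.7% without mCherry 3. The cause was not tested.

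With the replicate number as a block, limma called 0 genes (0 higher, 0 lower; 3191 at an unadjusted p under 0.05). Same-numbered libraries deviated together with correlations of -0.079, 0.19 and 0.136. mCherry 1 correlated best with DMSO 2 (0.169), while mCherry 2 and mCherry 3 correlated best with the DMSO library of their own number. The labels state no pairing, and these correlations, from so few libraries per group, cannot decide whether the numbers pair the samples. C4b ranged from -0.19 (without mCherry 3) to 0.57 with libraries left out and was -0.02 without both mCherry 3 and DMSO 3. Col1a1 ranged from -0.32 (without DMSO 3) to 1.00 and was -0.07 without mCherry 1. None of these passed. Depth is known only roughly, so low levels carry no counting interval here.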

Other observations

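Housekeeping lists had small median differences between the controls. Of 30 genes of oxidative phosphorylation, 30 cytosolic ribosomal proteins and 20 proteasome subunits none was called by limma (3, 0 and 0 at an unadjusted p under 0.05), against 1.26% called and 21.4% at that p over all tested genes, with median differences of -0.22, -0.13 and 0.09. Rps27, a ribosomal protein with processed copies in the genome, was the exception within a group, at 27.3, 0 and 118 TPM in mCherry and 59.3, 14.2 and 0 TPM in DMSO, and its value is uncertain. The median over all tested genes was 0.15, above that of oxidative phosphorylation. Of its 30 genes 5 lay wholly below in mCherry and 0 wholly above, against 9.57% and 24.1% of all genes. Under median-of-ratios scaling its median was -0.41, against -0.02 over all genes. Genes of the Y chromosome were present in all 6 libraries, and 1 of 4 passed. Eif2s3y, a translation factor, read 50.4, 54.3 and 33.0 TPM against 12.5, 17.6 and 9.59 TPM and passed (1.73 ± 0.28, adjusted p = 0.0474, limma). Ddx3y, an RNA helicase, read 20.3, 22.4 and 16.6 TPM against 8.69, 9.69 and 4.14 TPM (1.35, adjusted p = 0.107), and all 4 such genes lay wholly above in mCherry, as 24.1% of all tested genes did. Transcript GC content of Eif2s3y was 39.5%. Centred on GC content and length, its difference was 1.06 and did not pass (adjusted p = 0.0631, limma), and the median over the 4 genes went from 1.15 to 0.29.

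Other called genes, chosen after their values were seen, concern presynaptic terminals, retinoid and BMP signalling, and amino acid transport. Sncb, a presynaptic protein, read 194, 199 and 203 TPM in mCherry and 310, 345 and 354 TPM in DMSO (-0.76, adjusted p = 0.0425, limma). Aldh1a1, which makes retinoic acid, read 10.0, 8.98 and 11.9 TPM against 30.2, 26.5 and 32.3 TPM (-1.45, adjusted p = 0.0243). Id1, a target of BMP signalling, read 69.7, 58.4 and 56.2 TPM against 26.0, 25.6 and 26.0 TPM (1.21, adjusted p = 0.0243), and Id3 read 256, 233 and 311 TPM against 148, 126 and 134 TPM (0.96, adjusted p = 0.0453). Slc7a5, the carrier of large amino acids, read 132, 125 and 161 TPM against 350, 283 and 414 TPM (-1.31, adjusted p = 0.0336). In each of these 5 genes the groups were separate, and mCherry 3 stayed on the mCherry side.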
